A study of Mus musculus with 18 samples.

Results

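The 9 genes described here encode proteins of the cardiac thin filament and of the Z-disc: Actc1, Tpm1, Tnnt2, Tnni3 and Tnnc1 for the thin filament, and Nebl, Actn2, Ldb3 and Csrp3 for the Z-disc. They are 9 of 21887 protein-coding genes in the RefSeq gene table of mouse build GRCm38.p6, taken as a list of names with no threshold on their values. Each was followed over its gene span plus 2000 bases on each side, called the gene window. Peaks of all libraries that overlapped by at least 1 base were merged into regions, and 49 of the 152196 merged regions of the series lay in these 9 windows, which together span 637 kb. Nebl alone makes up 62.2% of that length.

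The series used methylated DNA immunoprecipitation sequencing (MeDIP-seq), in which an antibody against 5-methylcytosine pulls methylated fragments out of sheared genomic DNA. A peak marks a place where such fragments pile up, and gives no percentage of methylated molecules. The samples were hearts of 12-week-old male C57BL/6JR mice, 18 in all. In 5 groups of 3, myocardial infarction (MI) was induced by tying off the left anterior descending coronary artery, and hearts were sampled after 10 min, after 1 h or 6 h, or after 24 h or 72 h. The 3 sham mice (0 h) had the same surgery without the tie, and all mice had been anaesthetised with pentobarbital. The labels name myocardial tissue and the cell type Cardiomyocytes, describe no isolation of cells, and do not say whether the piece taken was infarcted or remote muscle. In such bulk DNA, a change in the share of one cell type and a change of methylation within a cell type cannot be told apart. Each mouse gave 1 library and 1 peak list, so p-values measure the spread between mice.

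Heart muscle shortens when myosin heads pull on thin filaments. These are polymers of actin with tropomyosin in their groove, and the troponin complex moves tropomyosin aside when calcium binds. At the Z-disc, thin filaments of neighbouring sarcomeres are crosslinked by alpha-actinin, together with proteins that hold the lattice and sense stretch. DNA methylation sits mostly on cytosines of CpG dinucleotides; CpG-dense promoters are usually unmethylated, while CpGs within gene bodies often carry the mark.

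The RefSeq table of start-site sequences, also of build GRCm38.p6, held 15 windows for the 9 genes, each running from 250 bases before a transcription start to 50 after it. Of these 15, 2 were touched by a peak: an internal start of Nebl and the start of Actn2. The upstream 250 bases of 6 windows are printed 5′ to 3′ on the strand of the gene, with every CpG in capitals, because methylated CpGs are what the antibody can bind. The first pair is the 2 windows with a peak. They are followed by the CpG-dense Nebl start, which had none. Last come starts of the 3 genes with the lowest unadjusted p for 72 h against the 15 other libraries, in tests given further on.
Nebl internal start, chr2:17670166-17670415, minus strand: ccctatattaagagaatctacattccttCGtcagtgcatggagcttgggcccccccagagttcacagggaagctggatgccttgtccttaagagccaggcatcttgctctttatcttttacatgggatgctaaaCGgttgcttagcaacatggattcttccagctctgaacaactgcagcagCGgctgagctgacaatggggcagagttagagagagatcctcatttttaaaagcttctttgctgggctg
Actn2, chr13:12340733-12340982, minus strand: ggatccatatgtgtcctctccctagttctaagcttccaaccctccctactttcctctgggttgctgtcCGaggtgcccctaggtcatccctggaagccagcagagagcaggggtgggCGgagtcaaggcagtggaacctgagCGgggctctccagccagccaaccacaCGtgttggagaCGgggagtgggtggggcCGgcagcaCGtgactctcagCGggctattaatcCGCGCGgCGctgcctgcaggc
Nebl CpG-dense start, chr2:17731135-17731384, minus strand: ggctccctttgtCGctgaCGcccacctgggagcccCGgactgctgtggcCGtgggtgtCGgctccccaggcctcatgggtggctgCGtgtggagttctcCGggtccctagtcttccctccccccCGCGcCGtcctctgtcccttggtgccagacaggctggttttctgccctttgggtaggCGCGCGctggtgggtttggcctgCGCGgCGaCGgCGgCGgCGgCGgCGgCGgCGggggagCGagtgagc
Tnnt2 first start, chr1:135836084-135836333, plus strand: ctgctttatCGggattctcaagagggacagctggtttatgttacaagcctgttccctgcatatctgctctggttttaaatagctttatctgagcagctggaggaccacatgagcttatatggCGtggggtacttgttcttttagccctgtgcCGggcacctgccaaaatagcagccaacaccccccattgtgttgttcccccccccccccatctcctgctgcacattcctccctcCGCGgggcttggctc
Csrp3 first start, chr7:48848052-48848301, minus strand: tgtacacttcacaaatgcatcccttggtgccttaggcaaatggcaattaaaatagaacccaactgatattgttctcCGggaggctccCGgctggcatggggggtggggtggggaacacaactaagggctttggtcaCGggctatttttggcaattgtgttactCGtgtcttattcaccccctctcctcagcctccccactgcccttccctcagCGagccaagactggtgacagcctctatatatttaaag
Actc1, chr2:114052876-114053125, minus strand: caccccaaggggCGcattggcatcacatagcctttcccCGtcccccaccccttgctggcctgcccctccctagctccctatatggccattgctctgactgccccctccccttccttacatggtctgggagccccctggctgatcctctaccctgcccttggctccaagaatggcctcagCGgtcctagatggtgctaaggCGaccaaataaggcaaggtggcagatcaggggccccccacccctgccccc
The full 300-base windows held 5 CpGs at the internal Nebl start, 19 at Actn2, 32 at the CpG-dense Nebl start, 5 at the first Tnnt2 start, 6 at Csrp3 and 7 at Actc1. The internal Nebl window had a peak in 7 of 18 libraries, and the Actn2 window in 2 of 18. The CpG-dense Nebl start and the Tpm1 start, with 27 CpGs, had a peak in no library. Of 21263 start windows of all genes, 6.15% had a peak in any library. That share was 6.81% for windows with 0 to 4 CpGs, 17.1% for 5 to 9, 6.06% for 10 to 19 and 1.16% for 20 or more. Both touched windows of the 9 genes thus lay in the middle classes, and the 2 in the densest class had no peak.

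The 15 windows were searched on both strands for 3 short sequence motifs bound by transcription factors. CATTCC, read by TEAD factors, was in 4 of the 15 windows and in 13.6% of all windows. CACGTG, an E-box, was in 2 of 15 and in 7.84% of all. The CArG box of serum response factor was in 4 of 15 and in 1.52% of all: in Actc1, in 1 Nebl window and in both Ldb3 windows, which overlap each other. A match describes letters only, and none of the CArG windows had a peak.

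Peaks in the 9 genes lay mostly inside the gene and were about as repeatable as elsewhere. Of the 49 regions, 45 were centred within the gene, 3 lay upstream (in Tnni3, Nebl and Actn2) and 1 lay at the 3′ end of Actn2. Only 2 regions, both in Nebl, had a peak in all 18 libraries (4.08%, against 5.09% of all merged regions). A further 12 had a peak in 1 library alone (24.5%, against 29.2%), and 17 had one in at least 6 libraries (34.7%, against 36.5%). The median region had a peak in 3 libraries, as over all regions. The 265 peaks in these windows had a median score of 71.5, where the score is the authors' own peak caller value and the median of a whole list ran from 69.07 to 75.91. The map of regions by library shows this mix of a few constant Nebl regions and many sporadic ones. Whether a region is exonic or intronic was not analysed here.

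**Figure D1:**
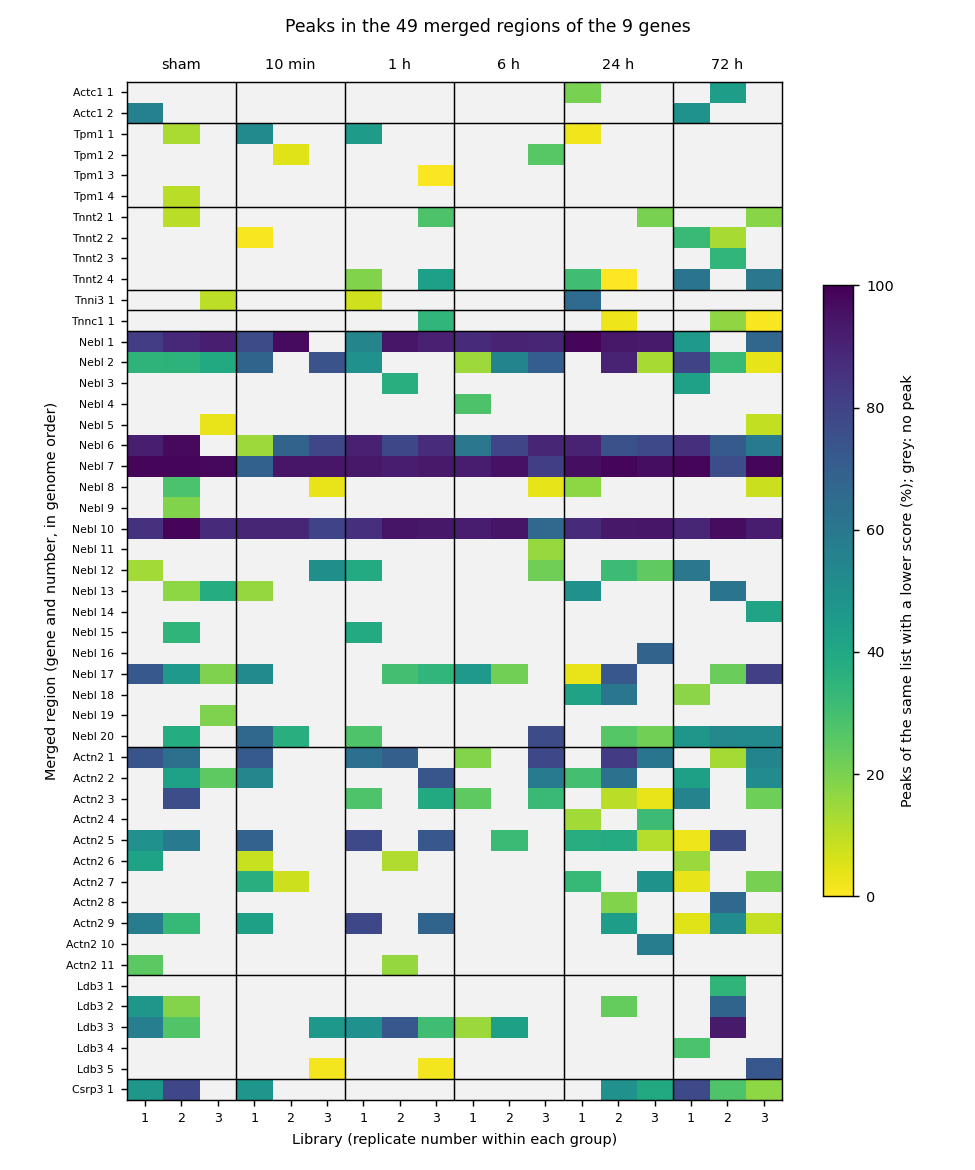
Peaks in the 49 merged regions (rows, numbered within each gene) of the 18 libraries (columns, 3 per group); the colour is the percentage of peaks in the same list with a lower score, and grey means no peak. Nebl regions 7 and 10 are filled in all 18 libraries, and Tnnt2, Tnni3 and Tnnc1 are blank in all 3 libraries at 6 h.

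No region of the 9 genes was gained or lost. A gain at a time point required a peak in 3 of 3 of its libraries against 0 of 3 sham libraries, and a loss required the reverse. Over MI as a whole a gain required at least 12 of 15 against 0 of 3, and a loss at most 3 of 15 against 3 of 3. Over all merged regions the 10 min libraries gained 0.216% and lost 0.624%, and the 1 h libraries gained 0.225% and lost 0.553%. The 6 h shares were 0.201% and 0.706%, the 24 h shares 0.393% and 0.524%, the 72 h shares 0.719% and 0.397%, and those of MI as a whole 0.0375% and 0.252%. In the 49 regions these rules called 0, and 0 had an unadjusted p under 0.05 in Fisher's exact test of MI against sham (0.858% of all regions did). The lowest p was 0.108, at Ldb3 region 2, with an adjusted p of 1. Several regions came 1 library short of a gain at 72 h. Tnnt2 regions 2 and 4, Tnnc1 region 1 and Actn2 region 7 showed no sham peak, and peaks in 2 replicates at 72 h. Each counted as gained once the 72 h library without a peak was left out. Without 72 h replicate 1, 2 or 3, calls at single times fell in 4.38%, 4.6% and 5.12% of all regions. Those shares were 2.04%, 4.08% and 2.04% of the 49 regions. Nebl region 20, upstream of the gene at chr2:17735883-17736911, was also 1 library short. All 3 libraries at 72 h had a peak there, as did 1 of 3 in sham, where sham replicate 2 had a score of 67.52. It was named as gained at 72 h when lists were cut to equal length, when at least 50% of the region had to be covered, or without sham replicate 2. No share of all regions is available for equal lists or for the 50% rule. Without sham replicate 2, calls at single times fell in 2.04% of the 49 regions, beside 7.33% of all regions.

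For each gene, coverage was the percentage of its window under peaks. It was tested over the 16532 protein-coding genes (75.5%) with a peak in any library, which include all 9. Over these comparisons the smallest adjusted p for any gene was 1 for MI against sham and 0.207 for 72 h against the other libraries, so 0 genes passed after Benjamini-Hochberg adjustment and the p-values given below are unadjusted unless stated. The 5 time points share the same 3 sham libraries. A comparison of 3 with 3 libraries cannot give an exact p under 0.1, so there the text says whether the groups overlap, beside the share of all genes that do not.

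Among the thin filament genes, Tnnt2 (gene 21956, chr1:135836315-135852268) stood highest at 72 h. It encodes cardiac troponin T, the subunit that anchors the troponin complex to tropomyosin. Its window had 0% under peaks in sham replicates 1 and 3 and 3.46% in sham replicate 2. At 10 min the values were 4.06%, 0% and 0%, and at 1 h they were 4.20%, 0% and 6.68%. All 3 libraries were at 0% at 6 h. The 24 h libraries held 3.45%, 3.98% and 3.71%, and the 72 h libraries 6.77%, 10.5% and 7.52%. The lowest 72 h library was thus above every other library of the series. The mean was 8.28% ± 2.0 (SD, n = 3) at 72 h and 1.15% ± 2.0 (SD, n = 3) in sham, a difference of 7.12 percentage points with an exact permutation p of 0.1. The groups did not overlap, which held for 1 of the 9 members and, in the same direction, for 4.98% of all genes; 0 members lay below sham without overlap, beside 2.61% of all genes. Against the 15 other libraries the difference was 6.31 points (exact permutation p = 0.00123, the smallest 3 against 15 allows; adjusted p = 0.207), and 0.684% of all genes were likewise higher without overlap. The share of the variance in Tnnt2 coverage that lay between the 6 groups was 0.725 (permutation p = 0.00551, adjusted p = 0.67).

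The Tnnt2 signal came from 4 regions inside the gene, and no 1 region had a peak in all 3 libraries at 72 h. Region 4, near the 3′ end at chr1:135850960-135851934, had a peak in 6 libraries: 2 of 3 each at 1 h, 24 h and 72 h, and 0 of 3 in the sham, 10 min and 6 h groups. Its highest scores were those of 72 h replicate 1 (86.02, above 61.7% of the peaks of that list) and 72 h replicate 3 (77.79, above 60.2%). The 72 h replicate 2 library instead had peaks in region 2 (55.48) and region 3 (65.56). Most Tnnt2 peaks were weak, down to 50.03, where 50 is the lowest score listed in any library.

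The groups also differed in list length. The lists held 34255 to 60653 peaks, with a mean of 56084 at 72 h and 51287 in sham, and 64.0% of all genes tested had a higher mean at 72 h than in the 15 other libraries. With only the 34255 top-scoring peaks of every list, Tnnt2 coverage at 72 h was 4.08%, 0% and 4.70%. It was 0% in all 3 sham libraries, 6.68% in 1 h replicate 3 and 3.45% in 24 h replicate 1, and the groups overlapped. The difference of 72 h from the 15 others was then 2.25 points (exact permutation p = 0.0735). On these equal lists 45.5% of all genes were higher at 72 h. The lowest score kept differed between lists and was higher in longer ones. It was 70.77, 71.19 and 60.83 in 72 h replicates 1 to 3, between 57.66 and 70.26 in sham, and 50.0 in 6 h replicate 3. A Tnnt2 peak of 65.56 in 72 h replicate 2 was thus dropped, while a peak of 59.88 in 1 h replicate 3 was kept. With peaks of score at least 75 from every list, the Tnnt2 difference was 2.93 points (exact permutation p = 0.0196). The comparison of 72 h with the other libraries was chosen because earlier results of these data had shown higher coverage of contractile genes at 72 h, so it is no independent evidence.

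**Figure D2:**
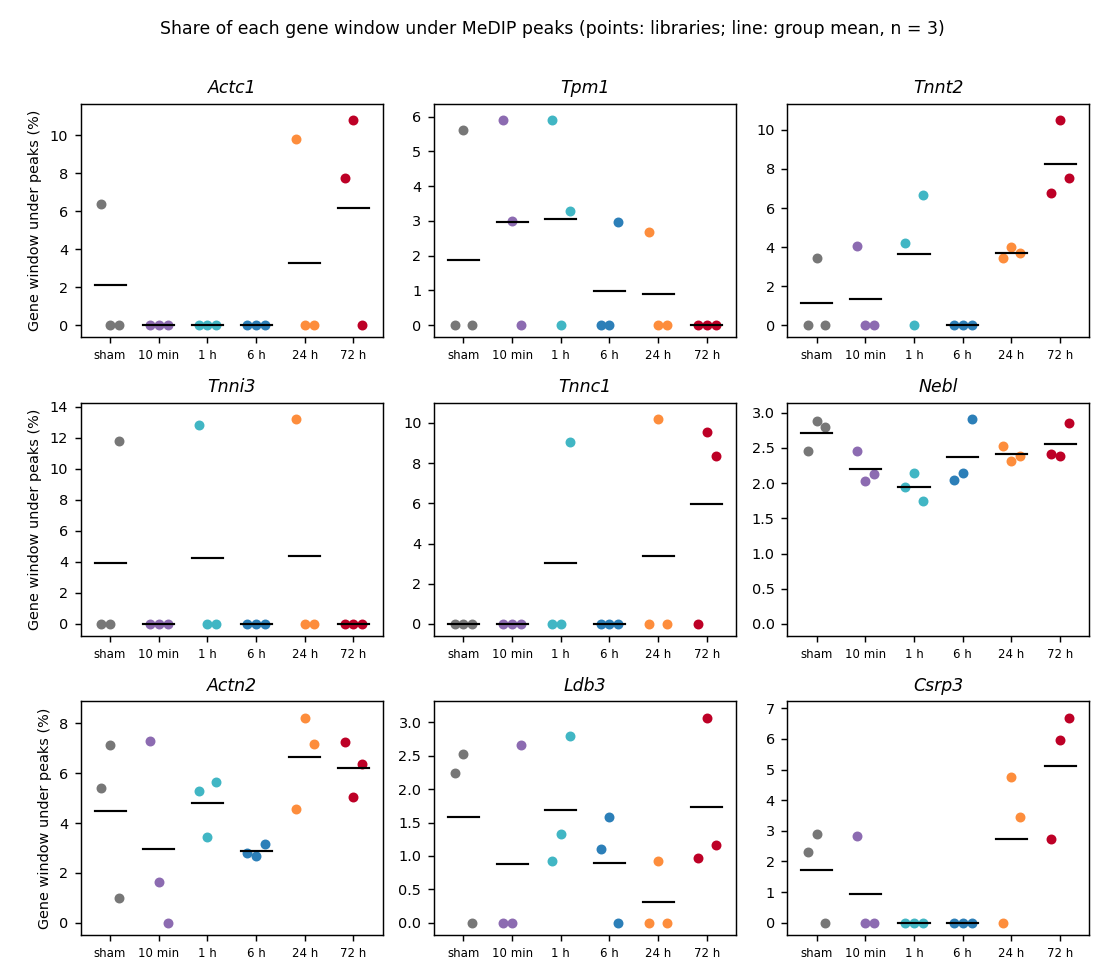
Percentage of each gene window under peaks (y axis, scaled per gene) in the 6 groups (x axis); points are libraries and the line is the group mean, n = 3. The 3 Tnnt2 libraries at 72 h, between 6.77% and 10.5%, lie above all others, while Tpm1 and Tnni3 are at 0% in all 3 libraries at 72 h.

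The other troponin subunits were covered in few libraries. Tnni3 (cardiac troponin I, the inhibitory subunit) had 1 region, upstream of the gene at chr7:4523167-4524318, where it overlaps the neighbouring gene Dnaaf3. Its peaks were in sham replicate 3 (11.8% of the window), 1 h replicate 1 (12.8%) and 24 h replicate 1 (13.2%). The other 15 libraries were at 0%, so sham and MI values overlapped throughout. Tnnc1 (troponin C, the calcium-binding subunit) had 1 region at the 3′ end of the gene, chr14:31211132-31211926. Its window was at 0% in all libraries of sham, 10 min and 6 h. It was at 9.03% in 1 h replicate 3, at 10.2% in 24 h replicate 2, and at 9.53% and 8.36% in 72 h replicates 2 and 3. The 72 h libraries exceeded the 15 others by 4.68 points on average, within their spread (exact permutation p = 0.0907, adjusted p = 0.602). All 4 Tnnc1 peaks were weak, with a median score of 53.96, and on equal lists only the 1 h peak was kept.

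Actc1, the alpha-actin of heart muscle and the backbone of its thin filament, had coverage in 4 libraries. The values were 6.41% in sham replicate 1, 9.79% in 24 h replicate 1, and 7.73% and 10.8% in 72 h replicates 1 and 2. The third 72 h library and all libraries at 10 min, 1 h and 6 h were at 0%, so 72 h overlapped sham. Against the 15 others the 72 h mean was 5.10 points higher (6.18% ± 5.57, n = 3; exact permutation p = 0.0392, adjusted p = 0.468). Without 72 h replicate 2 the difference was 2.79 points (exact permutation p = 0.228); leaving out 72 h replicate 1 gave 4.32 (exact permutation p = 0.125). On equal lists it was 5.75 points (exact permutation p = 0.0196), since the 24 h peak was no longer kept. The 2 Actc1 regions adjoin each other 2.44 and 3.41 kb downstream of the start.

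Tpm1, the main striated-muscle alpha-tropomyosin gene, went the other way in direction only. Its 4 regions gave 5.63% in sham replicate 2, 5.90% and 3.01% in 10 min replicates 1 and 2, and 5.90% and 3.29% in 1 h replicates 1 and 3. A single library at 6 h (2.96%) and a single library at 24 h (2.69%) had a peak, and none at 72 h. The 72 h mean was 1.96 points below the 15 others, within the spread of the libraries (exact permutation p = 0.281). Region 1, the most frequent with 4 libraries, lay at the 3′ end and overlaps the predicted gene Gm30639.

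Among the Z-disc genes, Nebl had the steadiest coverage. It encodes nebulette, an actin-binding relative of nebulin that links thin filaments to the Z-disc, and spans chr2:17342673-17734949. It was the 1 member with a peak in every library, as had 19.2% of all genes. Of its 20 regions, 8 had a peak in at least 6 libraries. Region 7 (chr2:17611935-17614511) scored between 88.16 in 10 min replicate 1 and 227.13 in 72 h replicate 1, with a median of 146.6, above 94.6% of the peaks of its list in the median library. Region 10 (chr2:17651115-17654979) was also in all 18 libraries, with a median score of 129.1. Region 6 (chr2:17554183-17555589) was in 17 and absent from sham replicate 3. Region 1 (chr2:17348435-17349176) was in 16, and was absent from 10 min replicate 3 and 72 h replicate 2. The centres of these 4 regions lie between 81.9 and 386.14 kb from the 5′ end of the gene.

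The remaining frequent Nebl regions had lower scores. Region 2 was in 14 libraries, region 17 in 12 and region 20 in 10. Region 12 (chr2:17669637-17670612) covered the internal start printed above. It had a peak in sham replicate 1, 10 min replicate 3, 1 h replicate 1, 6 h replicate 3, 24 h replicates 2 and 3, and 72 h replicate 1. Each group thus had at least 1 library with a peak at that start, and scores ran from 55.09 to 84.4.

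Nebl coverage was lower early after ligation than in sham, by a narrow margin at 10 min. Sham libraries held 2.46%, 2.88% and 2.79%. The 10 min libraries held 2.45%, 2.03% and 2.13%, and the 1 h libraries 1.95%, 2.14% and 1.75%. Neither time overlapped sham, but the gap at 10 min was between 2.45% and 2.46%. The difference was -0.50 points at 10 min and -0.76 points at 1 h (exact permutation p = 0.1 each). Of all genes, 4.63% lay below sham without overlap at 10 min and 6.24% at 1 h, and Nebl was 1 of 9 members both times. No member lay above sham without overlap, beside 1.98% of all genes at 10 min and 1.44% at 1 h. At 6 h (2.04%, 2.14%, 2.91%), 24 h (2.52%, 2.31%, 2.39%) and 72 h (2.41%, 2.39%, 2.85%) the values overlapped sham. For the 15 MI libraries together the difference from sham was -0.42 points (2.29% ± 0.318, n = 15, against 2.71% ± 0.224, n = 3; exact permutation p = 0.0527, adjusted p = 1). The difference was -0.03 points on equal lists (exact permutation p = 0.858) and -0.04 points for peaks of score at least 75 (exact permutation p = 0.778). Leaving out 1 library, the exact permutation p ran from 0.0206 (without 6 h replicate 3) to 0.199 (without sham replicate 2). It was also under 0.05 without sham replicate 1 (0.0441), 24 h replicate 1 (0.0471) or 72 h replicate 3 (0.0265). Over the gene span alone the difference was -0.49 points (exact permutation p = 0.011). On equal lists sham held 2.26%, 1.81% and 2.15%, the 1 h values stayed at 1.95%, 2.14% and 1.75%, and the groups overlapped. The 1 h lists held 44440 peaks on average.

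Actn2, which encodes the cardiac alpha-actinin that crosslinks actin at the Z-disc, was the most covered member. Its mean coverage over 18 libraries was 4.67%, higher than in 81.7% of all genes, and 17 libraries had a peak. Sham held 5.41%, 7.12% and 0.985%, and the 10 min libraries 7.28%, 1.63% and 0%. At 1 h the values were 5.29%, 3.46% and 5.66%. The 3 libraries at 6 h lay close together at 2.82%, 2.69% and 3.18%. The 24 h libraries had 4.56%, 8.23% and 7.19%, and those of 72 h had 7.24%, 5.03% and 6.36%. All 6 late libraries were above all 3 at 6 h, yet every time point overlapped sham, whose own range was wide. On equal lists the 72 h values of 2.85%, 3.96% and 3.05% overlapped the 6 h values of 1.24%, 0% and 3.18%. The 24 h values of 3.93%, 5.08% and 4.42% still lay above those of 6 h. The 72 h mean exceeded the 15 others by 1.85 points (exact permutation p = 0.244), and the share of variance between the 6 groups was 0.376 (permutation p = 0.281).

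Actn2 coverage was spread along the gene. Its 11 regions included 6 with a peak in at least 6 libraries. The most frequent were region 1 across the 3′ end (chr13:12268452-12269784, 11 libraries) and region 5 (chr13:12290465-12292858, 11 libraries). Regions 2, 3 and 9 were each in 9 libraries. Region 7 (chr13:12308240-12309466) had a peak in 6 MI libraries, 2 each at 10 min, 24 h and 72 h, and in 0 of 3 sham libraries. In region 9 all 3 libraries at 72 h had a peak, beside 2 of 3 sham libraries and 0 of 3 at 6 h. The peaks at the start, in sham replicate 1 and 1 h replicate 2, were weak, at 59.43 and 56.16.

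**Figure D3:**
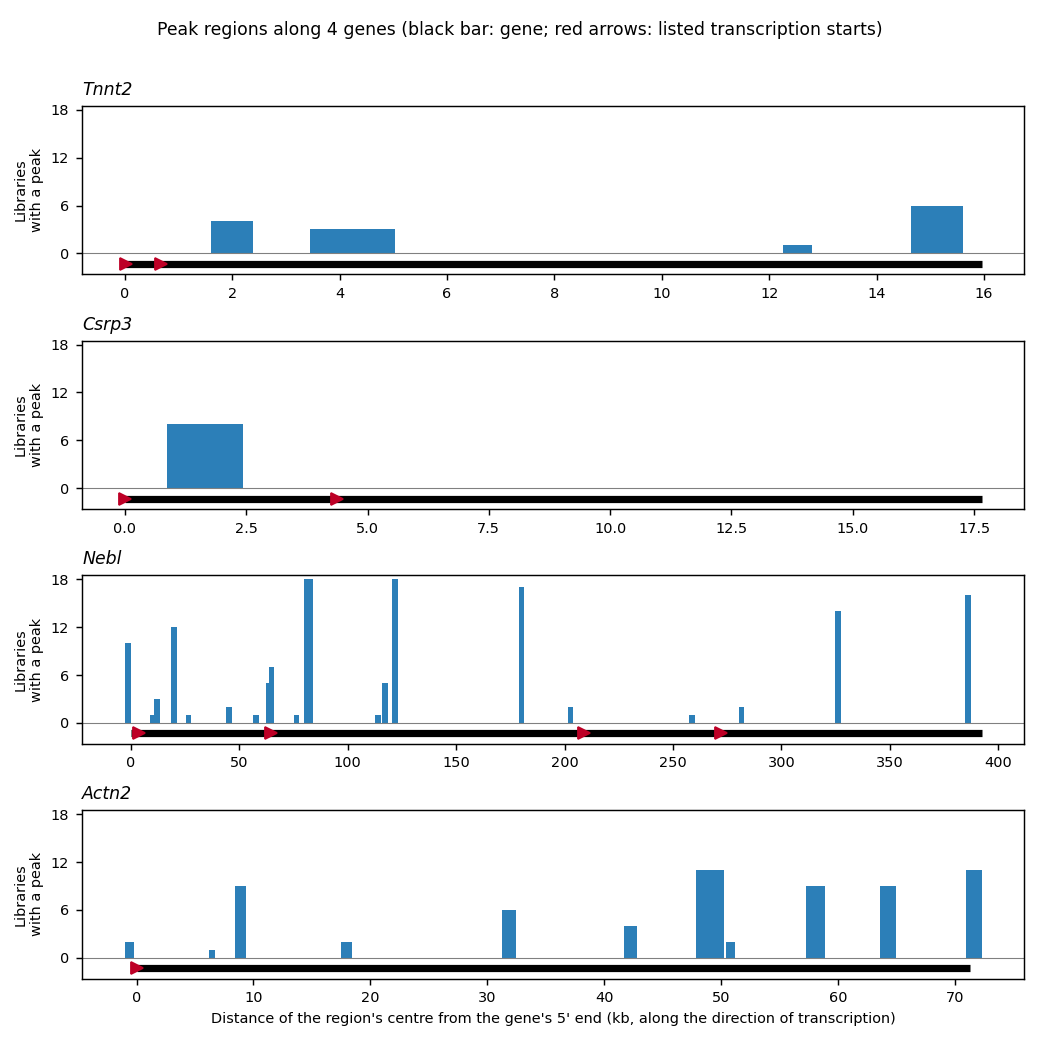
Number of libraries with a peak (bar height, of 18) in each region of Tnnt2, Csrp3, Nebl and Actn2 against the distance of its centre from the 5′ end of the gene in kb; narrow regions are drawn wider to be visible, the black bar is the gene and red arrows are listed starts. Tall bars stand inside Nebl and along Actn2, and the 1 Csrp3 region lies 1.65 kb from the start.

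Csrp3 encodes muscle LIM protein, a Z-disc and nuclear protein linked to the stretch response. It had a single region, chr7:48845620-48847174, 1.65 kb downstream of its first start, with a peak in 8 libraries. Sham held 2.32%, 2.89% and 0%, and the 10 min libraries 2.84%, 0% and 0%. All 6 libraries at 1 h and 6 h were at 0%. The 24 h libraries had 0%, 4.77% and 3.45%, and those of 72 h had 2.74%, 5.96% and 6.69%. The 72 h libraries overlapped sham through the lowest of the 3. Against the 15 others they were 4.04 points higher (5.13% ± 2.10, n = 3, against 1.09% ± 1.67, n = 15; exact permutation p = 0.00613, adjusted p = 0.318). Between the 6 groups lay a share of 0.649 of the variance (permutation p = 0.0211, adjusted p = 0.837), which was 0.564 without 72 h replicate 3 (permutation p = 0.0734) and 0.57 without 72 h replicate 2 (permutation p = 0.0683).

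In 2 of the 3 libraries, the higher Csrp3 values at 72 h came from weak peaks. The highest scores in the region were 109.38 in sham replicate 2 and 107.65 in 72 h replicate 1. The other 72 h libraries scored 60.62 and 62.16 (replicate 2, in 2 peaks) and 55.92 (replicate 3, 1448 bases wide). On equal lists the lowest score kept was 71.19 in 72 h replicate 2 and 60.83 in 72 h replicate 3. Both of these libraries were then at 0%, 72 h replicate 1 kept 2.74%, and the sham values did not move. The difference of 72 h from the others was then -0.17 points (exact permutation p = 0.757), so its direction turned. For peaks of score at least 75 it was 0.72 points (exact permutation p = 0.314).

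**Figure D4:**
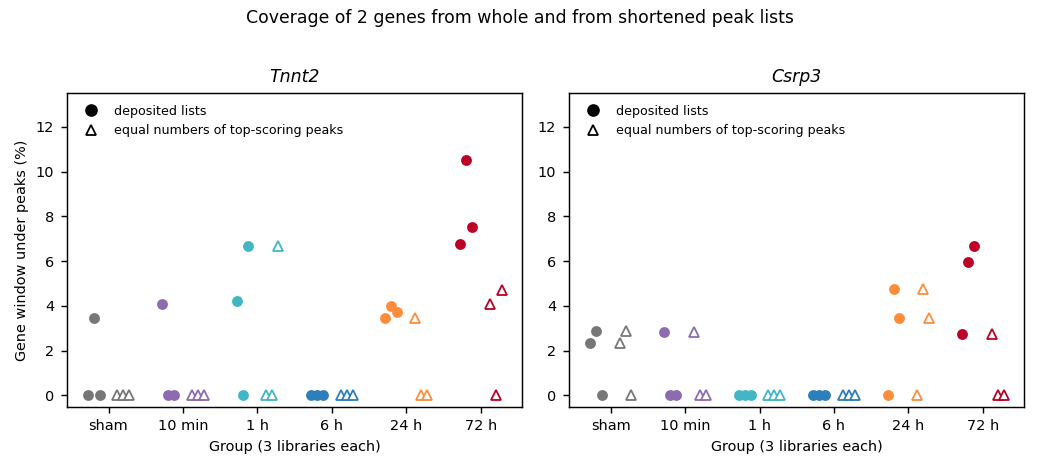
Percentage of the Tnnt2 and Csrp3 windows under peaks in each library by group, from whole deposited lists (filled circles) and from the 34255 top-scoring peaks of each list (open triangles). At 72 h Tnnt2 moves from between 6.77% and 10.5% to between 0% and 4.70%, and 2 of 3 Csrp3 libraries move to 0%.

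Ldb3 encodes a PDZ and LIM protein of the Z-disc, known as ZASP or Cypher, that binds alpha-actinin. It had the lowest mean coverage of the 9, 1.18%, in 12 libraries. Its most frequent region, region 3 (chr14:34566593-34567802), had a peak in 9 libraries. These were 2 sham libraries, 1 of the 10 min, all 3 of the 1 h, 2 of the 6 h, 0 of the 24 h and 1 of the 72 h libraries. The 72 h replicate 2 peak scored 149.63, above 92.7% of its list, and the next highest was 93.16 in 1 h replicate 2. Window values ran from 0% to 2.53% in sham, up to 0.929% at 24 h and from 0.964% to 3.07% in the 72 h group, and all time points overlapped sham.

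Taking the 9 genes by comparison, MI against sham had 0 members with an unadjusted exact permutation p under 0.05. By that measure 0.472% of all genes were higher and 3.82% lower. In that comparison 0 members lay apart from sham, beside 0.00605% of all genes above it. No share of all genes apart and below sham is available. Of the members 4 were higher and 5 lower on average, where 46.2% of all genes were higher. For 72 h against the 15 others, 7 members were higher and 2 (Tpm1 and Tnni3) lower, with a median difference of 1.85 points against 0.44 over all genes. The 3 members with an unadjusted p under 0.05 (Tnnt2, Csrp3 and Actc1) were all higher, beside 9.29% of all genes higher and 0.556% lower. On equal lists 1 of 9 remained, Actc1, beside 3.91% of all genes higher. Over the 6 groups 2 members (Tnnt2 and Csrp3) had a permutation p under 0.05, beside 5.49% of all genes, and on equal lists 0 had. At 6 h, 8 members were lower than sham on average and 1, Tnnc1, was at 0% in both. Of all genes, 35.3% were higher than sham at that time, when the lists were also shorter (mean 42620 peaks, against 51287 in sham). At 6 h 0 members were apart from sham, beside 4.76% of all genes below and 1.95% above. At 24 h 0 members were apart, beside 2.32% above and 4.56% below.

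Summed over the 9 windows, 2.66% ± 0.693 of the bases lay under peaks in sham (SD, n = 3). After 10 min the mean was 2.04% ± 0.743, after 1 h 2.31% ± 0.372 and after 6 h 1.96% ± 0.329 (SD, n = 3). The late means were 2.71% ± 0.179 for the 24 h group and 3.10% ± 0.193 for the 72 h group (SD, n = 3). The sham libraries spread from 2.0% to 3.38% and so enclosed the 72 h libraries, which ran from 2.88% to 3.21%. Over all gene windows the means were 2.40% ± 0.380 in sham and 2.59% ± 0.237 at 72 h. Between 6 and 7 of the 9 genes had a peak in each 72 h library, 3 in each library at 6 h and 3 to 6 in sham. Without Nebl, the other 8 windows held 2.57% ± 1.75 in sham, 1.28% ± 0.0917 at 6 h and 4.0% ± 0.493 at 72 h. The 9 thick filament genes compared held 2.36% ± 0.882 in sham and 3.40% ± 1.33 at 72 h, again with overlap.

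**Figure D5:**
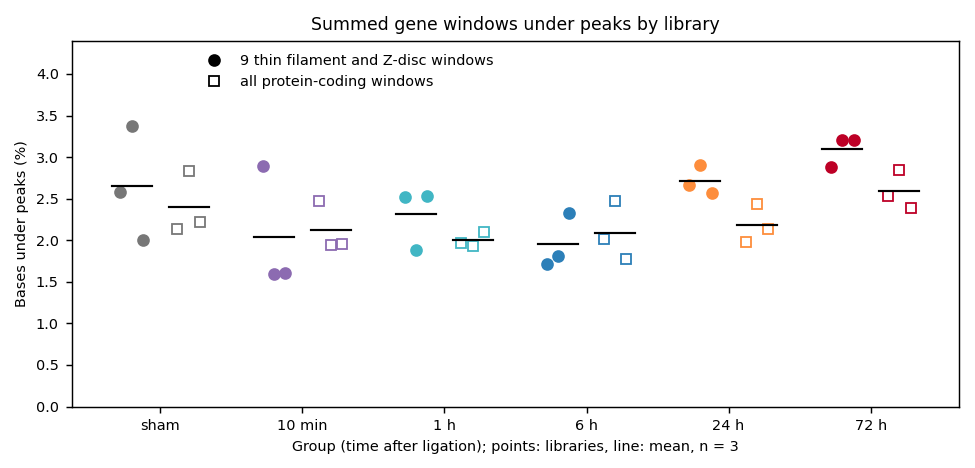
Percentage of bases under peaks in the 9 summed gene windows (filled circles) and in all protein-coding gene windows (open squares) by group; each point is a library and the line is the mean, n = 3. The 72 h members sit between 2.88% and 3.21%, within the sham range of 2.0% to 3.38%.

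A list of 30 other thin filament and Z-disc genes was followed in the same way. Of these, 28 had a peak in any library, all but Tpm4 and Tcap, and 9 had one in all 18. The highest median coverage was in Lmod2 (8.74%), which elongates thin filaments, Pdlim7 (8.53%), a PDZ and LIM protein, and Tnnt1 (6.70%), the slow skeletal troponin T. At 72 h 21 of 28 were higher than sham on average and 7 lower, where 54.9% of all genes were higher. Of the 28, 3 lay above sham without overlap, beside 4.98% of all genes. These were Bag3, a co-chaperone at the Z-disc (13.7% ± 3.78 against 2.84% ± 3.52), Ankrd1, a stretch-responsive ankyrin repeat protein (9.22% against 1.78%), and Synpo2, an actin-binding Z-disc protein (5.56% ± 1.01 against 2.22% ± 0.372). Against the 15 others, 9 of 28 were higher with an unadjusted exact permutation p under 0.05 and 0 lower, beside the 9.29% of all genes given above. Bag3 and Synpo2 each reached the smallest p possible (exact permutation p = 0.00123, adjusted p = 0.207), with differences of 10.5 and 3.25 points. The related genes were read on whole lists only, which were longer at 72 h, and have no values on equal lists. The comparison was chosen as told above for Tnnt2, so their counts are no independent evidence. For MI against sham 1 of 28 had an unadjusted p under 0.05 and was lower, beside 3.82% of all genes, a share that 1 of 28 does not exceed. It was Tpm2, at 1.67% in MI and 8.17% in sham (exact permutation p = 0.0429, adjusted p = 1).

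The gene with the library pattern most like that of Actn2 was Ldlrad2 (Spearman rho = 0.848), followed by Arhgap8 (0.839), among 10900 genes with a peak in at least 9 libraries. For Tnnt2 these were Gm46900 (0.839) and Rbp3 (0.817), and for Tnni3 Gpr26 and Rnaset2b (0.64 each). These are descriptions over 18 libraries whose lists differ in length, a difference all genes share, and with so many genes compared a high value is found for many patterns.

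Cell type markers of the design were read in the same lists, as coverage of their gene windows and not as expression. The 5 cardiomyocyte genes were Myh6, Ryr2, Pln, Nppa and Tnnt2, so they include a member described above and are no separate readout. Of these, 2 to 4 had a peak in each sham library and 3 to 5 in each 72 h library. Their summed coverage was 0.591% to 1.37% in sham and 0.954% to 2.38% at 72 h. Tnnt2 itself had a peak in 1 sham library and in all 3 libraries at 72 h. Of 5 leukocyte genes, 0 to 1 had a peak in sham and 2 at 72 h, with 0% to 1.06% and 1.26% to 1.64%. The 1 h libraries, with 1 to 3 of these genes and 1.52% to 1.71%, were as high as those of 72 h, and the 24 h libraries spread from 0.262% to 1.53%. The 5 endothelial genes held 3.69% to 6.94% in sham and 4.4% to 6.84% at 72 h, and the 5 fibroblast genes 2.06% to 3.45% and 2.38% to 4.91%. A peak in a window does not mark a cell type, and the part of changing cell types in the 72 h values was not tested.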

How the data were processed

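Peaks were called on each library separately and deposited by the authors as 18 lists (chromosome, start, end, name, score). Bowtie2, MACS2 and build mm10, which is GRCm38, are named per the submitters' processing notes. Their versions and options, and whether an input library served as control, are not given in the sources used here. The deposited score is the authors' own, its scale is not stated, and its lowest value is 50 in every list. It was used only to describe, rank or filter peaks within a list. No counts were used, so sequencing depth is unknown.

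Here the bases under peaks per gene window (2000 bases each side) and merged regions were computed with Python 3.11.15, numpy 2.4.6, pandas 2.3.3 and scipy 1.17.1. Tests were two-sided exact permutation tests of mean differences (20 assignments for 3 against 3 and 816 for 3 against 15), and for the 6 groups 100000 random relabelings, Benjamini-Hochberg adjusted over 16532 genes. The scripts were tested on simulated data. All 9 members and the regions with a peak in at least 6 libraries are named by rule, as are the genes most alike by Spearman rho; other regions and related genes were named after their values were seen. Members and lists were chosen with earlier results of these data known. Alternatives tried were a score of at least 75, equal lists, other flanks, peak number, region overlap, leaving out each library and a replicate block. The main tests treated libraries as unpaired. Libraries of one number correlated with a mean r of 0.00358 in deviations from their group means. Whether they share anything beyond the number was not tested.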

Additional observations from a re-analysis of the deposited data

Results flagged for a closer look

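For 3 members and for the 9 windows together, every library of a late time point was above the sham mean while every library of an early one was below it. These differences between times were not tested, and no share of all genes that meet the same rule is available. The 3 of 9 therefore cannot be called particular to these genes. For Tnnt2, with all 3 of its 6 h libraries at 0%, the 24 h mean exceeded the 6 h mean by 3.72 percentage points and the 72 h mean exceeded it by 8.28. For Actn2 the 24 h mean exceeded the 6 h mean by 3.76 points and the 72 h mean exceeded it by 3.32. Csrp3 coverage at 72 h was 5.13 points above that at 1 h and also 5.13 points above that at 6 h, since both earlier times were at 0%. The 9 windows together had a 72 h mean 0.788 points above the 1 h mean and 1.14 points above the 6 h mean. The peak lists were also longer at 72 h (mean 56084 peaks) than at 1 h (44440) and 6 h (42620), and with lists cut to equal length the differences were smaller. They were then 1.15 (24 h) and 2.93 points (72 h) for Tnnt2 over 6 h, 3.0 and 1.81 for Actn2, and 0.913 for Csrp3 over both 1 h and 6 h. The 9 windows together then differed by 0.00696 points between 72 h and 1 h and by 0.387 between 72 h and 6 h.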

How the results depend on the processing

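Of 903 recomputed values, 802 were labelled unchanged: they kept their side of the threshold without turning direction, or stayed within the spread. Counts were also labelled so after a small change, such as 3 members to 2 for 72 h against the others by peak number. So were differences that fell to 0, such as Tpm1 in MI against sham at a score of at least 75. The causes of the other changes were not tested. With a score of at least 75, and likewise with equal lists, the members apart from sham fell to 0 at 10 min (lower), 0 at 1 h (lower) and 0 at 72 h (higher). Beside these, 3.82%, 4.55% and 3.86% of all genes lay apart at the stricter score, and 2.59%, 3.47% and 3.08% on equal lists. The members with p under 0.05 then fell to 1 for 72 h against the others (Tnnt2 and Actc1 respectively, beside 9.53% and 3.91% of all genes higher) and to 0 over the 6 groups. With 5000 bases each side, or peak number in place of bases, 0 members were apart at 10 min; with peak number 0 were apart at 1 h, and 1 had p under 0.05 over the 6 groups (Tnnt2). A share of variance could not be given where no library kept a peak. Over gene spans alone 1 member, Nebl, had p under 0.05 for MI against sham. No share of all genes is available for gene spans, 5000 bases each side or peak number. With equal lists, and with a peak required over 50% of a region, 1 region was gained (Nebl region 20, at 72 h). No share of all regions is available for these settings.

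Directions turned for MI against sham at a score of at least 75 in Tnni3 (0.88), Actn2 (-0.556) and Csrp3 (-0.781). On equal lists they turned in Tpm1 (0.984), Tnni3 (0.88), Actn2 (-0.239) and Csrp3 (-0.818), and by peak number in Csrp3 (-0.2 peaks). On equal lists 72 h against the others turned in Tnnc1 (-0.602) and Csrp3 (-0.172). Without Nebl, chosen after seeing the data, the summed difference from sham was 0.34 after 1 h, -1.28 after 6 h, and 0.655 and 1.43 for the 24 h and 72 h groups. With all 9 windows the summed 1 h difference of -0.345 became 0.185 on equal lists and 0.0186 without sham replicate 2. The summed 24 h difference of 0.0588 became -0.102 at a score of at least 75, -0.267 without sham replicate 3 and -0.0403 without 24 h replicate 2.

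Leaving out 1 library at a time, members apart and lower ran from 1 to 2 at 1 h, 0 to 3 at 6 h (3 without sham replicate 3), and 0 to 1 for the 24 h as for the 72 h group. Members apart and higher ran from 0 to 1 at 1 h, 0 to 3 at 24 h (3 without 24 h replicate 1) and 1 to 3 at 72 h (3 without 72 h replicate 1). With 1 library less, 2.56% to 4.52% of all genes lay above sham at 1 h, 3.71% to 6.79% at 24 h and 7.1% to 12.1% at 72 h. The shares below sham were 9.5% to 14.7% for 1 h, 6.97% to 11.5% for 6 h, 6.74% to 11.2% for 24 h and 4.38% to 7.21% for 72 h. Members with p under 0.05 ran from 0 to 1 for MI against sham (Nebl, with lowest exact permutation p = 0.0206, without 6 h replicate 3), 2 to 4 for 72 h and 1 to 3 over the 6 groups. No share of all genes is available for these counts or for the replicate block below, so they have no background. Calls of regions gained or lost, summed over the 6 comparisons, ran from 0 to 8. Without sham replicate 3 the calls at single times fell in 4 regions (8.16% of the 49, beside 7.64% of all regions). Differences for MI against sham ran from -1.32 to 1.89 in Actc1, -1.23 to 1.58 in Tpm1, -4.17 to 1.73 in Tnni3, -1.56 to 1.51 in Actn2 and -0.843 to 0.602 in Csrp3, and for 72 h from -0.00567 to 1.05 in Ldb3. Tnnt2 at 72 h ran from 5.18 to 7.06, and the summed 72 h difference from sham from 0.117 (without sham replicate 3) to 0.806 (without sham replicate 2). With the replicate block, 0 members had p under 0.05 for MI against sham and 2 for 72 h, where Actc1 had p = 0.0556 (exact permutation within blocks). The labels give same-numbered libraries nothing in common but the number. As a hint from the data and not the design, 9 of 18 were on average most like the libraries of their own number, where 6 would be if numbers carried nothing, and deviations of same-numbered libraries correlated at -0.0612 to 0.0734.

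Lists without reads give no counting error, and 0% says that no peak was called, not that the DNA was unmethylated.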
